A study of Arabidopsis thaliana with 23 samples.

Results

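Removing the main shoot releases axillary buds from inhibition by the growing shoot tip, which is called apical dominance. The transcripts that change with this release were read here in wild type (WT) Arabidopsis thaliana of the Col-0 accession, from all genes of 3 libraries of decapitated WT and 3 libraries of intact WT axillary tissue. These 6 libraries are part of 23 samples in the series. In decapitated plants the main shoot had been cut off below the lowest cauline (stem) leaf when the inflorescence was about 1 cm tall. The tissue was axillary buds together with the rosette leaf axil beneath them, from plants grown at 22 °C in long days. The labels do not give the time between the cut and the harvest, nor whether each library had plants of its own, and p-values therefore measure a spread between libraries that may be technical. For some genes a further group of 3 libraries is given, axillary tissue of intact brc1-2, a mutant of the bud repressor gene BRC1. All 9 axillary libraries carry the same batch label.

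A bud that is held back by the main shoot keeps leaf primordia that grow slowly or not at all. Auxin made in the shoot tip and moved down the stem is known to act from a distance, raising strigolactone and lowering cytokinin, and the growing tip also competes with buds for sugar. In the bud these inputs meet on BRC1, a TCP transcription factor that activates HB21, HB40 and HB53, homeobox genes that in turn raise NCED3, an enzyme gene of abscisic acid synthesis. Loss of the tip is also a wound.

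Total counts ran from 47462342 to 57419543 per WT library, and levels are CPM, counts scaled by TMM to a common library size of 1e6, counted over the annotated exons of each gene. A number in brackets behind a gene is its log2 change, decapitated minus intact WT, from the edgeR quasi-likelihood test at n = 3 per group, with SE where given. Where the values of every library are given, the 2 groups of libraries do not overlap unless an overlap is named. "Rose" and "fell" mark a Benjamini-Hochberg adjusted p under 0.05 over all genes tested. The first principal component of the 9 libraries held 42.5% of the variance and separated intact WT from the other groups. The second held 33.1% and separated decapitated WT from intact brc1-2, and libraries of a group lay close together. The tissue label was checked against markers. The bud and boundary genes STM, CUC1, CUC2, CUC3, LAS and RAX1 had reads in every library, with 38.7 ± 1.46 CPM in decapitated WT and 46.2 ± 0.966 CPM in intact WT for STM and 0.895 ± 0.482 CPM in decapitated WT and 0.871 ± 0.114 CPM in intact WT for LAS (SD, n = 3 each). Marker genes of leaf, flower and stem wall had reads too, and which tissue these reads came from was not tested. RBCS1A, a Rubisco subunit gene, averaged 7181 ± 125 CPM in decapitated WT and 7917 ± 113 CPM in intact WT (SD, n = 3 each). The floral gene AP1 averaged 10.2 ± 1.28 CPM in decapitated WT and 9.38 ± 0.334 CPM in intact WT, with overlap (SD, n = 3 each). The stem wall gene CESA4 averaged 23.3 ± 1.43 CPM in decapitated WT and 30.5 ± 0.659 CPM in intact WT (SD, n = 3 each). Where genes have near-identical copies or exons that overlap another gene, single values are uncertain, and since no source used here states the strand of counting, sense and antisense reads of a locus cannot be told apart.

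Of 21539 genes tested, 6334 rose and 7222 fell, which is 29.4% and 33.5% of all genes. Most changes were small: 619 genes rose and 1072 fell by at least 2-fold (2.87% and 4.98%), and the median size among genes that passed was 0.42 on the log2 scale. The median over all genes tested was -0.03. Counts for gene lists and families below are to be read against these shares. The lists and families were chosen with earlier results of these data known, so their counts are descriptive and no independent test. In bulk tissue fewer cells of a type and less RNA per cell cannot be told apart, which holds for every change given here.

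**Figure D1:**
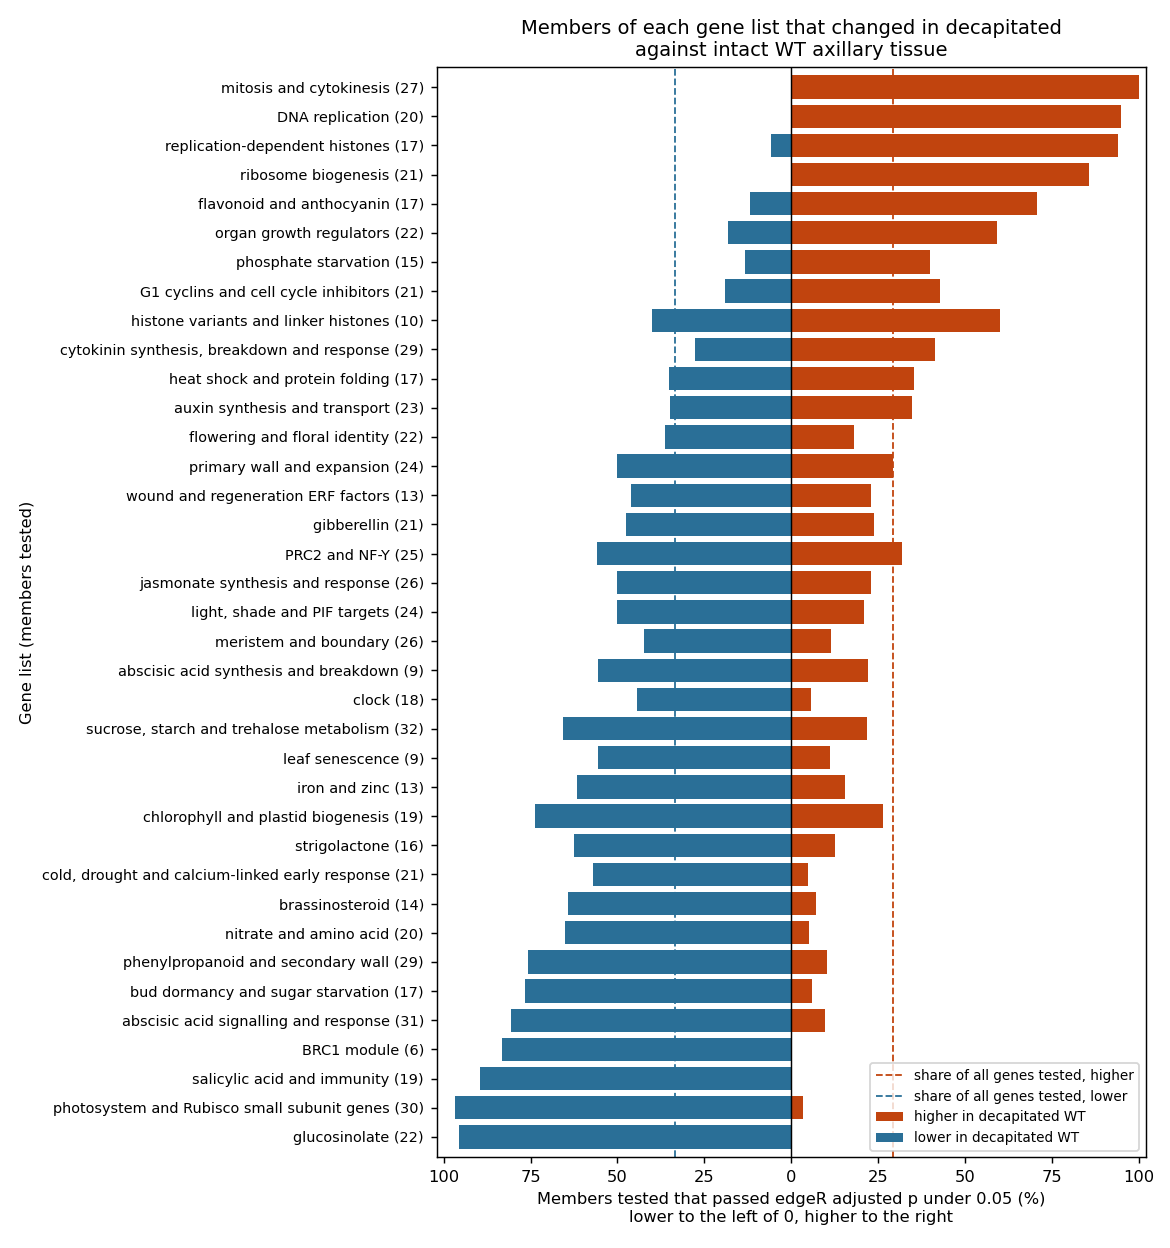
Share of tested members of 37 gene lists that passed edgeR adjusted p under 0.05, higher in decapitated than in intact WT to the right of 0 and lower to the left, with the number of members tested in brackets. Dashed lines mark the shares over all genes, 29.4% higher and 33.5% lower; mitosis, DNA replication, histone and ribosome assembly genes stand at the top and glucosinolate, photosystem and salicylic acid genes at the bottom.

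The BRC1 module was read first, because it links the axil to the main shoot. BRC1 (AT3G18550; chromosome 3, 6383289 to 6385815, coordinates of TAIR10 here and below) had 1.76, 1.75 and 1.58 CPM in decapitated WT, against 7.82, 6.54 and 7.84 CPM in intact WT. All 3 decapitated libraries lay below all 3 intact ones, and BRC1 fell (-2.12 ± 0.15) at edgeR adjusted p = 5.7e-13. HB40 (AT4G36740; chromosome 4, 17314453 to 17316441) had 0.111, 0.211 and 0.409 CPM in decapitated WT, against 4.33, 4.02 and 3.52 CPM in intact WT (-4.03 ± 0.29). HB21 had 0.611, 0.599 and 0.8801 CPM in decapitated WT, against 4.77, 6.33 and 5.76 CPM in intact WT (-3.02 ± 0.23), and HB53 had 0.259, 0.159 and 0.286 CPM in decapitated WT, against 2.87, 3.896 and 3.002 CPM in intact WT (-3.797 ± 0.29). The homeobox genes fell by more than BRC1 on the log2 scale, and HB21, like BRC1, kept part of its level in decapitated WT. NCED3 had 0.574, 0.493 and 0.4298 CPM in decapitated WT, against 4.53, 4.19 and 4.62 CPM in intact WT (-3.15 ± 0.21). In all 5 of 6 module genes fell, and BRC2, the paralog of BRC1, did not pass, with a log2 change of -0.04 (edgeR adjusted p = 0.76).

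Genes that respond to abscisic acid, the hormone of dormancy and water stress, fell as a group. Of 33 on the list 31 were tested, and 25 fell and 3 rose, with a median of -0.89. RD29B, a classic target gene of the hormone, had 0.03703, 0.0705 and 0.0409 CPM in decapitated WT, against 0.818, 0.614 and 0.649 CPM in intact WT (-3.73 ± 0.55). KIN2, a cold and abscisic acid induced gene with the near-identical neighbour KIN1, had 82.9, 81.3 and 81.8 CPM in decapitated WT, against 369, 382 and 366 CPM in intact WT (-2.18 ± 0.03). The bZIP factor gene ABI5 (-2.36), the dehydrin gene RAB18 (-1.83) and the phosphatase gene HAI1 (-2.06) fell as well. ABI1 (-0.89), HAB1 (-0.69) and PP2CA (-0.91), which encode the phosphatases that hold the pathway off, fell too. Receptor genes were split: PYL9 (-1.197) and PYL7 (-0.58) fell, while PYL4 (0.55), PYL6 (0.64) and PYL1 (0.16) rose. Of the exon bases of PYL7, 49.7% lie in another annotated gene, so its value is uncertain.

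Metabolism of the hormone moved on both sides. Of 9 synthesis and breakdown genes tested 5 fell and 2 rose. ABA1, the zeaxanthin epoxidase gene, fell (-0.59), as did the 8'-hydroxylase genes CYP707A3 (-1.12) and CYP707A2 (-0.73), which break the hormone down, while CYP707A4 (0.33) rose.

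Genes that mark dormant buds and sugar starvation fell in 13 of 17 cases. DRM2, a dormancy-associated gene, had 2.94, 1.81 and 2.66 CPM in decapitated WT, against 20.7, 20.6 and 20.4 CPM in intact WT (-3.06 ± 0.11). The 4 class II trehalose phosphate synthase genes on the list, TPS8 (-0.99), TPS9 (-1.09), TPS10 (-0.75) and TPS11 (-0.58), fell together, and so did SEN1 (-1.74) and AKINBETA1 (-0.80), a subunit of the energy sensor kinase SnRK1. PRODH1, the proline dehydrogenase gene, was the 1 member that rose, with 52.5, 51.2 and 50.3 CPM in decapitated WT, against 24.9, 25.6 and 26.9 CPM in intact WT (0.99 ± 0.05), and P5CS1, which makes proline, fell (-1.09). DIN10 (-0.10), MCCA (-0.09) and DIN4 (0.05), other starvation genes, did not pass, and DIN10 did pass in the fit without decapitated WT replicate 3, at -0.20.

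Of 21 cold, drought and early response genes 12 fell, among them CBF3 (-2.397), ZAT6 (-1.51), COR413IM1 (-1.24) and ERD14 (-1.14), and CML38 (1.19) was the 1 that rose. Other genes known from dry tissue or drought fell too. LEA4-5 (AT5G06760; chromosome 5, 2089445 to 2090430), a late embryogenesis abundant protein gene, had 0.0741, 0.194 and 0.225 CPM in decapitated WT, against 7.56, 5.56 and 6.78 CPM in intact WT (-5.33 ± 0.28). HIS1-3 (AT2G18050; chromosome 2, 7845923 to 7847031), a linker histone variant that is known to be induced by drought, had 2.83, 2.82 and 1.94 CPM in decapitated WT, against 19.2, 19.5 and 19.4 CPM in intact WT (-2.92 ± 0.11). The lipid transfer protein gene LTP3 had 2.76, 2.82 and 3.38 CPM in decapitated WT, against 29.7, 30.5 and 29.3 CPM in intact WT (-3.33 ± 0.09), and its near-identical neighbour LTP4 (-2.86) fell as well. The U-box ubiquitin ligase gene PUB19 had 0.463, 0.317 and 0.4503 CPM in decapitated WT, against 3.89, 3.63 and 3.095 CPM in intact WT (-3.11 ± 0.24). In each of these genes every decapitated library lay far below every intact one.

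Cell division genes rose as a block. All 27 mitosis and cytokinesis genes on the list passed the filter and rose, with log2 changes of 0.42 for CDKB1;1 to 1.95 for HINKEL and a median of 0.99. HINKEL (AT1G18370; chromosome 1, 6319450 to 6324378), a kinesin that builds the cell plate, had 69.96, 69.96 and 78.96 CPM in decapitated WT, against 18.8, 18.6 and 19.2 CPM in intact WT (1.95 ± 0.05). CDC20.1, an activator of the anaphase promoting complex, had 99.7, 99.6 and 107 CPM in decapitated WT, against 31.6, 31.97 and 29.6 CPM in intact WT (1.72 ± 0.04), and its near-identical copy CDC20.2 (1.72) moved with it. The mitotic cyclin gene CYCB1;2 (1.43), the spindle gene TPX2 (1.39), the cytokinesis gene PLE (1.36) and the kinase gene AUR1 (1.28) rose more than 2-fold.

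DNA replication genes rose by less. Of 20 tested 19 rose and 0 fell, with a median of 0.60, and none reached 2-fold. MCM2, a subunit of the replicative helicase, had 72.5, 73.2 and 75.7 CPM in decapitated WT, against 39.99, 40.6 and 40.1 CPM in intact WT (0.87 ± 0.04). MET1, which keeps DNA methylation through replication, rose (0.95), as did the chromatin assembly genes FAS1 (0.80) and FAS2 (0.55) and the ribonucleotide reductase gene RNR1 (0.71). E2FB (0.04) did not pass.

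Core histone genes rose in 16 of 17 cases, with a median of 0.51, and 1 fell, HTA12 (-0.94), a gene whose exons overlap another gene over 34.7% of their bases. The 5 genes for histone H3.1 encode the same protein and share sequence, so their single values are uncertain. Among 10 variant and linker histone genes 6 rose and 4 fell. The H2A.Z genes HTA11 (0.60) and HTA8 (0.59) and the centromeric histone gene HTR12 (0.44) rose, while HTA9 (-0.26), also an H2A.Z gene, and 2 of 3 genes for H3.3 fell, with log2 changes of -0.29 and -0.27.

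The regulators of entry into the cycle were split. Of 21 G1 cyclin and inhibitor genes tested 9 rose and 4 fell. The cyclin genes CYCD4;1 (0.59), CYCD3;1 (0.23) and CYCD3;3 (0.22) rose, and CYCD3;2 (-0.06) did not pass, though it did with upper-quartile scaling. Inhibitor genes went both ways: KRP3 had 13.2, 11.7 and 11.3 CPM in decapitated WT, against 6.13, 7.25 and 5.58 CPM in intact WT (0.93 ± 0.10), and KRP5 (0.72) and KRP7 (0.79) rose with it, while SMR1 (-0.69), SIM (-0.56) and KRP4 (-0.30) fell. The exons of SMR1, SIM and KRP4 overlap other genes over 40.3%, 31.4% and 38.7% of their bases.

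**Figure D2:**
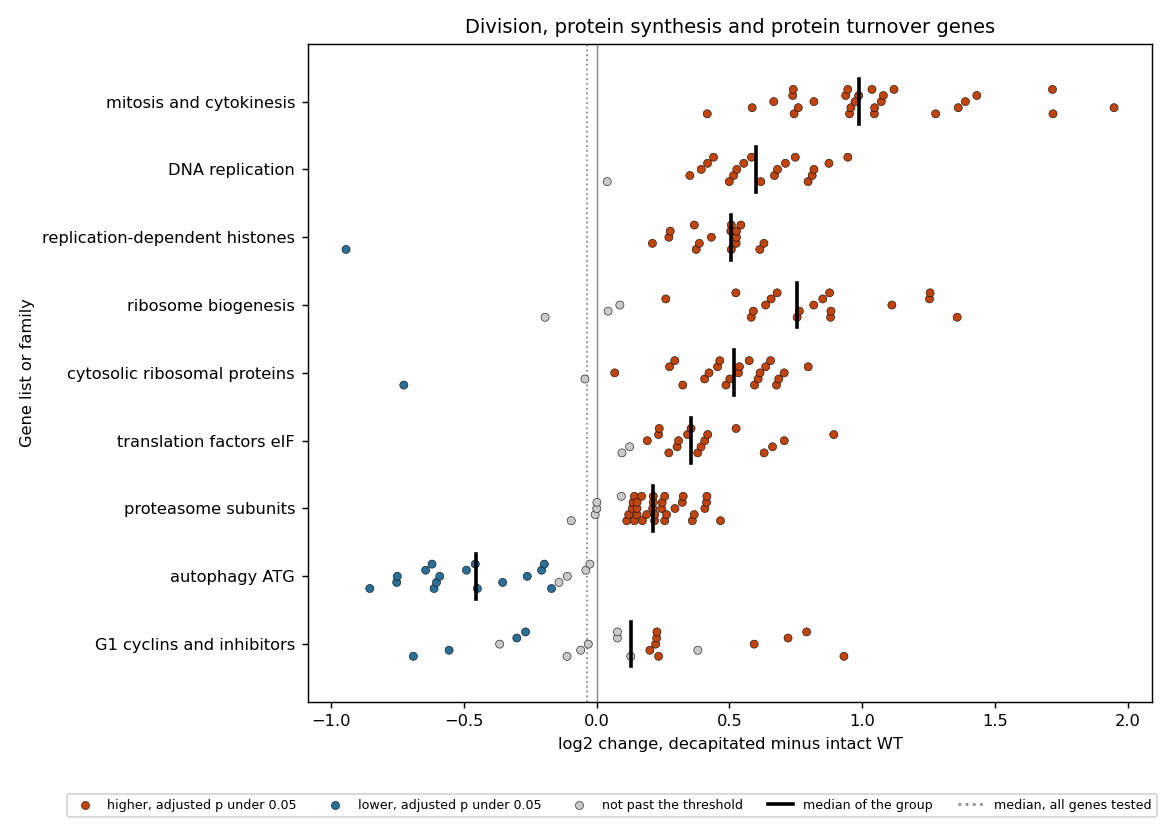
Log2 change of each tested gene (points) in lists and families of cell division, protein synthesis and protein turnover, decapitated minus intact WT, with the group's median as a bar and the median of all genes, -0.03, as a dotted line. Mitosis genes have the highest median, 0.99, and autophagy genes the lowest, -0.45.

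Genes that build and run the ribosome rose with the division genes. Of 21 ribosome assembly genes tested 18 rose and 0 fell, with a median of 0.76. RRP5 (AT3G11964; chromosome 3, 3793731 to 3806743), which processes precursor ribosomal RNA, had 166, 174 and 186 CPM in decapitated WT, against 67.8, 71 and 66.3 CPM in intact WT (1.36 ± 0.04). OLI2, a nucleolar protein gene known from leaf growth, had 111, 118 and 112 CPM in decapitated WT, against 46.8, 49.5 and 46.8 CPM in intact WT (1.25 ± 0.04). Of the fibrillarin genes, which act in ribosomal RNA methylation, FIB2 (1.26) and FIB1 (0.26) both rose. Cytosolic ribosomal protein genes with a symbol rose in 22 of 24 cases (median 0.52), and translation initiation factor genes in 17 of 19 cases, including EIF3A (0.89) and EIF3C (0.63).

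Protein folding and turnover genes went in both directions. The endoplasmic reticulum chaperone gene BIP2, which has the near-identical copy BIP1, had 269, 264 and 272 CPM in decapitated WT, against 125, 125 and 137 CPM in intact WT (1.05 ± 0.03), and the folding genes PDIL1-1 (0.73), CRT1 (0.63) and CNX1 (0.59) rose. BIP3, the copy known to be induced by folding stress, fell (-1.17). Of 36 proteasome subunit genes 31 rose and 0 fell, by small amounts (median 0.21), with RPN1B (0.47) and RPN1A (0.42) among them. Of 20 autophagy genes 16 fell and 0 rose (median -0.45). ATG8F, which marks the autophagosome membrane, had 70.2, 73.2 and 70.4 CPM in decapitated WT, against 126, 116 and 119.6 CPM in intact WT (-0.75 ± 0.04). Of 17 heat shock and folding genes in all 6 rose and 6 fell, and cytosolic heat shock genes gave no common direction: HSP101 (0.10), HSP90.1 (-0.13) and HSFA2 (0.15) did not pass, and HSP17.6A rose, with 29, 34 and 17 counts in decapitated WT, against 1, 8 and 4 counts in intact WT (2.598 ± 0.63). Without intact WT replicate 2 its log2 change was 3.31.

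Organ growth genes, most of them for transcription factors, rose in 13 of 22 cases and fell in 4. ANT, which prolongs cell division in lateral organs, had 91.3, 90.7 and 92.7 CPM in decapitated WT, against 60.01, 59.8 and 57.6 CPM in intact WT (0.63 ± 0.03). Its relatives AIL7 (0.79) and AIL6 (0.41), the leaf margin gene JAG (0.85), the growth regulating factor genes GRF6 (0.65), GRF2 (0.56) and GRF4 (0.41) and their partner GIF1 (0.28) rose as well. ARGOS, which is also known to raise organ size, went the other way, with 3.57, 3.15 and 2.97 CPM in decapitated WT, against 12.2, 11.7 and 12.5 CPM in intact WT (-1.91 ± 0.10), and its paralog ARL fell too (-1.46).

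Genes of the shoot meristem and the organ boundary changed mostly by small amounts. Of 26 tested 3 rose, 11 fell and 12 did not pass, and 1 reached 2-fold. This was CUC3, a NAC gene of the axil boundary, with 3.94, 3.83 and 4.09 CPM in decapitated WT, against 1.34, 2.19 and 2.22 CPM in intact WT (1.04 ± 0.18) at edgeR adjusted p = 1.7e-05. CUC1 (0.13), CUC2 (0.23) and LAS (0.03), which act in the same boundary, did not pass. The meristem genes STM (-0.26), KNAT1 (-0.24) and CLV1 (-0.49) and the boundary gene LSH3 (-0.54) fell.

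Auxin, made in young leaves and moved down the stem by carriers, was read by role. Of 23 synthesis and transport genes 8 rose and 8 fell. Most synthesis genes tested rose. TAA1 had 12.2, 11.03 and 10.4 CPM in decapitated WT, against 6.25, 4.77 and 5.52 CPM in intact WT (1.03 ± 0.10). YUC4 had 4.65, 4.65 and 4.99 CPM in decapitated WT, against 1.78, 1.18 and 2.13 CPM in intact WT (1.49 ± 0.17). YUC6 (0.54), YUC2 (0.53) and TAR2 (0.45) rose as well, and YUC1 (0.41) and YUC8 (0.48) did not pass. Among carriers, the efflux carrier genes PIN3 (-0.48), PIN4 (-0.31) and PIN7 (-0.30) and the influx carrier gene LAX1 (-0.51) fell, while the influx carrier gene LAX2 (0.22) rose.

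Early auxin response genes fell. Of 23 Aux/IAA repressor genes 14 fell and 0 rose, with IAA7 (-0.83), IAA2 (-0.92) and IAA19 (-0.90) among them. Of 80 SAUR genes, a family of small proteins tied to cell expansion, 66 were tested, and 40 fell and 3 rose (median -0.51). SAUR9 (-1.84) and AT5G20820 (-1.297) were among those with the smallest p. Members of this family lie in tandem arrays of similar sequence, so single members are uncertain. The auxin conjugase genes moved against this: 3 of 4 GH3 genes rose, including GH3.3, with 23.96, 21.4 and 23.7 CPM in decapitated WT, against 14.4, 14.9 and 15.3 CPM in intact WT (0.63 ± 0.06).

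Cytokinin, which promotes bud growth, gave a mixed picture. Of 29 genes tested 12 rose and 8 fell. The type-A response regulator genes ARR15 (0.72), ARR6 (0.58), ARR16 (0.36), ARR7 (0.35) and ARR4 (0.29), which cytokinin induces, rose by small amounts, and ARR9 (-0.29) fell. The oxidase genes, which break cytokinin down, split: CKX3 had 1.91, 1.67 and 1.78 CPM in decapitated WT, against 0.439, 0.228 and 0.445 CPM in intact WT (2.27 ± 0.30), and CKX5 (1.03) rose, whereas CKX1 (-1.03) fell. No synthesis gene tested passed as higher: IPT5 (-0.86), LOG5 (-1.59), LOG1 (-0.39) and LOG8 (-0.17) fell, and the others tested, such as IPT3 (-0.04) and CYP735A1 (0.76), did not pass. The exporter gene ABCG14 (0.64) and the receptor gene AHK4 (0.43) rose.

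Of 21 gibberellin genes tested 10 fell and 5 rose. The GA2OX genes encode enzymes that inactivate the hormone, and they did not move together. GA2OX2 (AT1G30040; chromosome 1, 10537457 to 10540044) had 24.3, 25.2 and 25.5 CPM in decapitated WT, against 9.64, 9.14 and 9.75 CPM in intact WT (1.39 ± 0.07). GA2OX1 had 1.19, 1.97 and 1.51 CPM in decapitated WT, against 5.03, 4.19 and 4.596 CPM in intact WT (-1.56 ± 0.17). The receptor gene GID1C (-0.97) and the DELLA repressor genes RGL3 (-0.80) and RGA (-0.33) fell, and RGL2 (0.35) rose. Brassinosteroid genes fell in 9 of 14 cases, with the response gene BEE3 (-1.403) and the synthesis genes ROT3 (-0.40) and CPD (-0.30) lower, and the receptor gene BRL3 (0.35) was the 1 that rose.

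Strigolactone is a hormone that holds buds back, and its synthesis, perception and signalling genes fell at most steps. Of 16 tested 10 fell and 2 rose. MAX4 had 1.83, 2.08 and 2.19 CPM in decapitated WT, against 5.75, 6.18 and 6.54 CPM in intact WT (-1.598 ± 0.14), and MAX3 had 6, 10 and 10 counts in decapitated WT, against 39, 72 and 53 counts in intact WT (-2.61 ± 0.39); both encode carotenoid cleavage enzymes of the synthesis pathway. The receptor gene D14 (-0.58) and its F-box partner MAX2 (-0.56) fell. SMXL6 (-0.61), SMXL7 (-0.51) and SMXL8 (-0.87), which encode repressors of the strigolactone response, fell too, while their more distant relatives SMXL3 (0.23) and SMXL4 (0.37) rose. SMXL3 did not pass without decapitated WT replicate 1 (0.21) or 2 (0.22) or without intact WT replicate 2 (0.16).

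Some of the largest rises were in ERF genes linked to wounding. RAP2.6L (AT5G13330; chromosome 5, 4271730 to 4274674), an ERF factor gene known from shoot regeneration and from the healing of cut stems, had 46.7, 45.4 and 45.5 CPM in decapitated WT, against 0.878, 1.21 and 0.834 CPM in intact WT, which is 46.7 times as much (5.54 ± 0.10) at edgeR adjusted p = 8.2e-26. Its relative RAP2.6 (AT1G43160; chromosome 1, 16263805 to 16264945) had 581, 629 and 651 counts in decapitated WT, against 2, 5 and 2 counts in intact WT. In CPM this was 11.7 ± 1.396 CPM in decapitated WT and 0.0549 ± 0.0285 CPM in intact WT (SD, n = 3 each), with no overlap (7.65 ± 0.24). Among other genes linked to cut surfaces, WIND1 (0.12) rose by little, ESR1 (0.26), ESR2 (0.15) and ANAC071 (-0.18) did not pass, and ERF115, with 8, 22 and 2 counts in decapitated WT, against 0, 0 and 0 counts in intact WT, did not pass the filter and was not tested.

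Ethylene response factor genes of defence fell. ERF1 (AT3G23240; chromosome 3, 8295617 to 8296604) had 0.852, 0.405 and 0.471 CPM in decapitated WT, against 5.51, 4.28 and 4.69 CPM in intact WT (-3.06 ± 0.24). ERF2 had 5.26, 4.09 and 4.44 CPM in decapitated WT, against 20.5, 19.97 and 21.8 CPM in intact WT (-2.17 ± 0.09), and ORA59 had 4.39, 4.76 and 3.54 CPM in decapitated WT, against 19.2, 19.9 and 19.5 CPM in intact WT (-2.202 ± 0.11). Over the genes with an ERF symbol, 12 of 20 tested fell and 0 rose. This family was taken by name and leaves out RAP2.6, RAP2.6L and WIND1, which rose. On the list of 13 tested wound and regeneration genes, 3 rose and 6 fell.

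Jasmonate genes, which respond to wounding and herbivores, went both ways: 6 rose and 13 fell of 26 tested. CYP94B3 (AT3G48520; chromosome 3, 17974853 to 17976774), which inactivates the hormone's active form, had 138, 197 and 135 counts in decapitated WT, against 0, 6 and 1 counts in intact WT (6.01 ± 0.54). JAZ10, a repressor gene that jasmonate itself induces, had 24.8, 23.9 and 24.2 CPM in decapitated WT, against 9.499, 8.58 and 9.75 CPM in intact WT (1.39 ± 0.08). VSP1, a storage protein gene with the close copy VSP2, had 320.3, 318 and 303 CPM in decapitated WT, against 123, 124 and 118 CPM in intact WT (1.37 ± 0.03). The defensin gene PDF1.2A, which has near-identical copies, fell, with 30.8, 29.5 and 31.5 CPM in decapitated WT, against 185, 184 and 170.0 CPM in intact WT (-2.55 ± 0.05). Synthesis genes were lower as well, with AOC1 (-1.49), AOS (-0.73), OPR3 (-0.26) and LOX2 (-0.23) among those that fell. JAZ1 (0.09), JAZ5 (0.01) and JAZ7 (-0.18) did not pass. MYC2, the main factor of the response, was listed at 0 in all 9 libraries; 98.5% of its exon bases lie in another annotated gene, and it was not used.

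Salicylic acid and immunity genes fell with no exception among those that passed: 17 of 19 tested fell, with a median of -0.77. PR1 (AT2G14610; chromosome 2, 6241640 to 6242541), the pathogenesis marker gene, had 0.148, 0.388 and 0.143 CPM in decapitated WT, against 3.93, 3.16 and 4.003 CPM in intact WT (-3.98 ± 0.21), and -4.64 without decapitated WT replicate 2. ACD6, an ankyrin membrane protein gene of defence, had 36.2, 35.9 and 37.97 CPM in decapitated WT, against 109, 109 and 106 CPM in intact WT (-1.56 ± 0.04). The regulators WRKY70 (-1.46), SARD1 (-1.16) and PAD4 (-1.07) fell. ICS1, the synthesis enzyme gene, fell by little (-0.22), and EDS1 (-0.02) did not pass. In the WRKY family 20 of 54 tested genes fell and 7 rose, among them WRKY28 (1.39) and WRKY48 (0.80).

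Chemical defence genes fell too. Glucosinolates are sulfur compounds that deter insects. Of 22 of their genes tested 21 fell and 0 rose, with a median of -0.74. CYP79B3, the entry enzyme gene of the indole branch, had 68.8, 63.9 and 64 CPM in decapitated WT, against 148, 145 and 142 CPM in intact WT (-1.14 ± 0.04). In the aliphatic branch BCAT4 (-1.06), MAM1 (-0.88), CYP79F1 (-0.76) and the factor gene MYB29 (-0.36) fell, and MYB28 fell by little (-0.10). This small fall did not pass without decapitated WT replicate 2 (-0.08) or in a fit of the 6 WT libraries alone (-0.07). Among P450 genes of the CYP71 clade 23 of 31 fell, among tau glutathione transferases 12 of 20 with 0 higher, and among UDP-glycosyltransferases 20 of 41 with 7 higher.

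**Figure D3:**
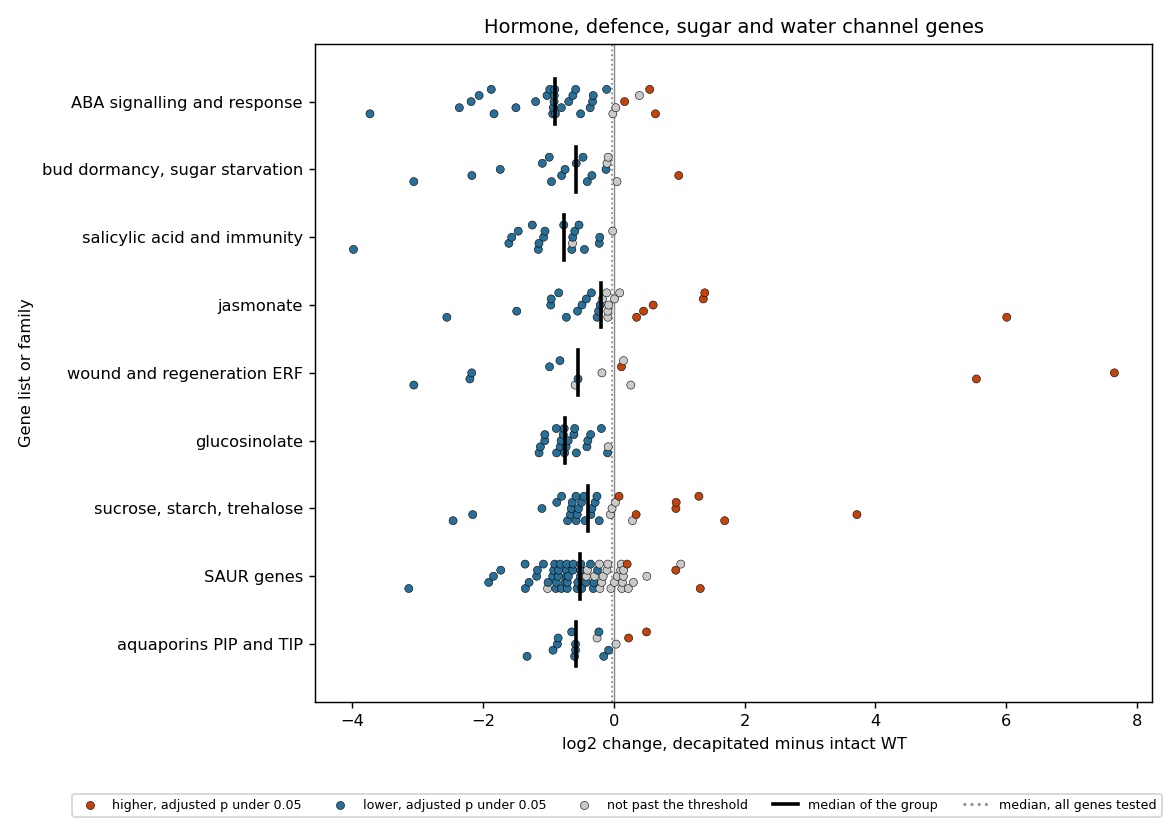
Log2 change of each tested gene (points) in hormone, defence, sugar and water channel groups, decapitated minus intact WT, with the group's median as a bar and the median of all genes, -0.03, as a dotted line. RAP2.6, RAP2.6L and CYP94B3 lie far to the right of groups whose medians lie at or below 0.

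Sugar reaches a bud as sucrose through the phloem and is split, stored or signalled there. Of 32 sugar genes tested 21 fell and 7 rose. GPT2 (AT1G61800; chromosome 1, 22824414 to 22826902), which imports glucose phosphate into plastids and is known to be induced by sugar, had 6.92, 6.71 and 8.29 CPM in decapitated WT, against 0.559, 0.456 and 0.649 CPM in intact WT (3.72 ± 0.18). BAM5, a beta-amylase gene, had 90.4, 87.8 and 90.98 CPM in decapitated WT, against 27.6, 28.2 and 27.4 CPM in intact WT (1.69 ± 0.05). CWINV1, a cell wall invertase that splits sucrose outside the cell, had 12.5, 13.9 and 13.6 CPM in decapitated WT, against 4.73, 6.37 and 5.08 CPM in intact WT (1.3 ± 0.10). TPS1, the active synthase of trehalose 6-phosphate, had 96.1, 100.2 and 107 CPM in decapitated WT, against 52.7, 51.6 and 52.6 CPM in intact WT (0.95 ± 0.04), while the class II genes of its family fell, as given above. The starch synthesis gene APL4 rose as well (0.95).

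Sugar exporters and sucrose synthases fell. SWEET12, a sucrose exporter of the phloem, had 1.296, 1.02 and 1.84 CPM in decapitated WT, against 7.26, 7.26 and 8.17 CPM in intact WT (-2.46 ± 0.16). SWEET4 (-1.1), SWEET11 (-0.50) and the phloem loader gene SUC2 (-0.66) fell, as did the sucrose synthase genes SUS3 (-2.16), SUS4 (-0.65) and SUS1 (-0.54). SUC1 (-0.03) and SWEET15 (0.28) did not pass.

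Nitrogen genes fell in 13 of 20 cases. NRT1.1, the nitrate transporter and sensor gene, had 53.6, 55.3 and 51.6 CPM in decapitated WT, against 96.2, 95.8 and 96.1 CPM in intact WT (-0.84 ± 0.04). The reduction genes NIA2 (-0.75) and NIR1 (-0.57) fell, NIA1 (-0.03) did not pass, and the glutamate synthase gene GLU1 (0.15) was the 1 that rose. In the NPF and NRT transporter family 17 of 28 tested genes fell. Iron and zinc genes fell in 8 of 13 cases, with the nicotianamine synthase genes NAS1 (-0.89) and NAS4 (-0.82) and the transporter gene YSL3 (-0.99) lower. The ferritin genes FER3 (0.86) and FER4 (0.58) rose and FER1 (-0.25) fell. Phosphate genes rose in 6 of 15 cases, with SPX1 (0.73) higher, and PHO1 (-0.75), which exports phosphate, lower.

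Photosynthesis genes fell nearly throughout but by small amounts. Of 30 photosystem and Rubisco genes tested 29 fell and 1 rose, with a median of -0.40. Their summed level was 62850 to 67313 CPM in decapitated WT, against 85774 to 86557 CPM in intact WT, so they held a smaller share of all reads. Genes encoded in the plastid itself took 0.0124 to 0.0169% of counts in decapitated WT, against 0.0182 to 0.0247% in intact WT. The antenna genes LHCB2.1 (-0.75) and LHCB4.2 (-0.73) had the lowest values of the list, and the Rubisco genes RBCS1A (-0.14) and RBCS1B (0.15), which share sequence, lay near 0. Of 19 chlorophyll and plastid genes 14 fell, among them PORA (-1.16), SIG5 (-1.104) and GLK1 (-0.48), and 5 rose, among them SIG2 (0.38). What part a smaller share of green tissue has in these values was not tested.

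Flavonoid genes rose in 12 of 17 cases. Early and late enzyme genes rose, such as CHS (0.35), FLS1 (0.61), DFR (0.34) and LDOX (0.48). Their regulators were split: GL3, a bHLH gene of pigment and hair formation, had 6.91, 7.42 and 6.61 CPM in decapitated WT, against 2.495, 2.67 and 2.26 CPM in intact WT (1.495 ± 0.13), and the flavonol factor gene MYB111 (0.81) rose, while the anthocyanin activator gene PAP1 (-0.86) and the inhibitor gene MYBL2 (-1.16) fell. MYB0, the hair gene also called GL1, rose (0.73).

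Leaf senescence genes fell in 5 of 9 cases. NAP, a NAC factor that drives leaf ageing, had 0.981, 0.987 and 0.675 CPM in decapitated WT, against 7.26, 7.46 and 6.97 CPM in intact WT (-3.02 ± 0.17). ORE1 (-2.29), SAG13 (-2.25) and SAG21 (-1.91) fell as well. RNS1, a secreted ribonuclease gene known to be induced by wounding, had 2.28, 2.57 and 1.41 CPM in decapitated WT, against 0.0798, 0.281 and 0.371 CPM in intact WT (3.07 ± 0.37), the 1 rise on that list. Across the NAC family 31 of 62 tested genes fell and 6 rose, with NAC001 (1.75) and NAC103 (1.14) among the rises. Across the MYB family 33 of 81 fell and 10 rose.

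**Figure D4:**
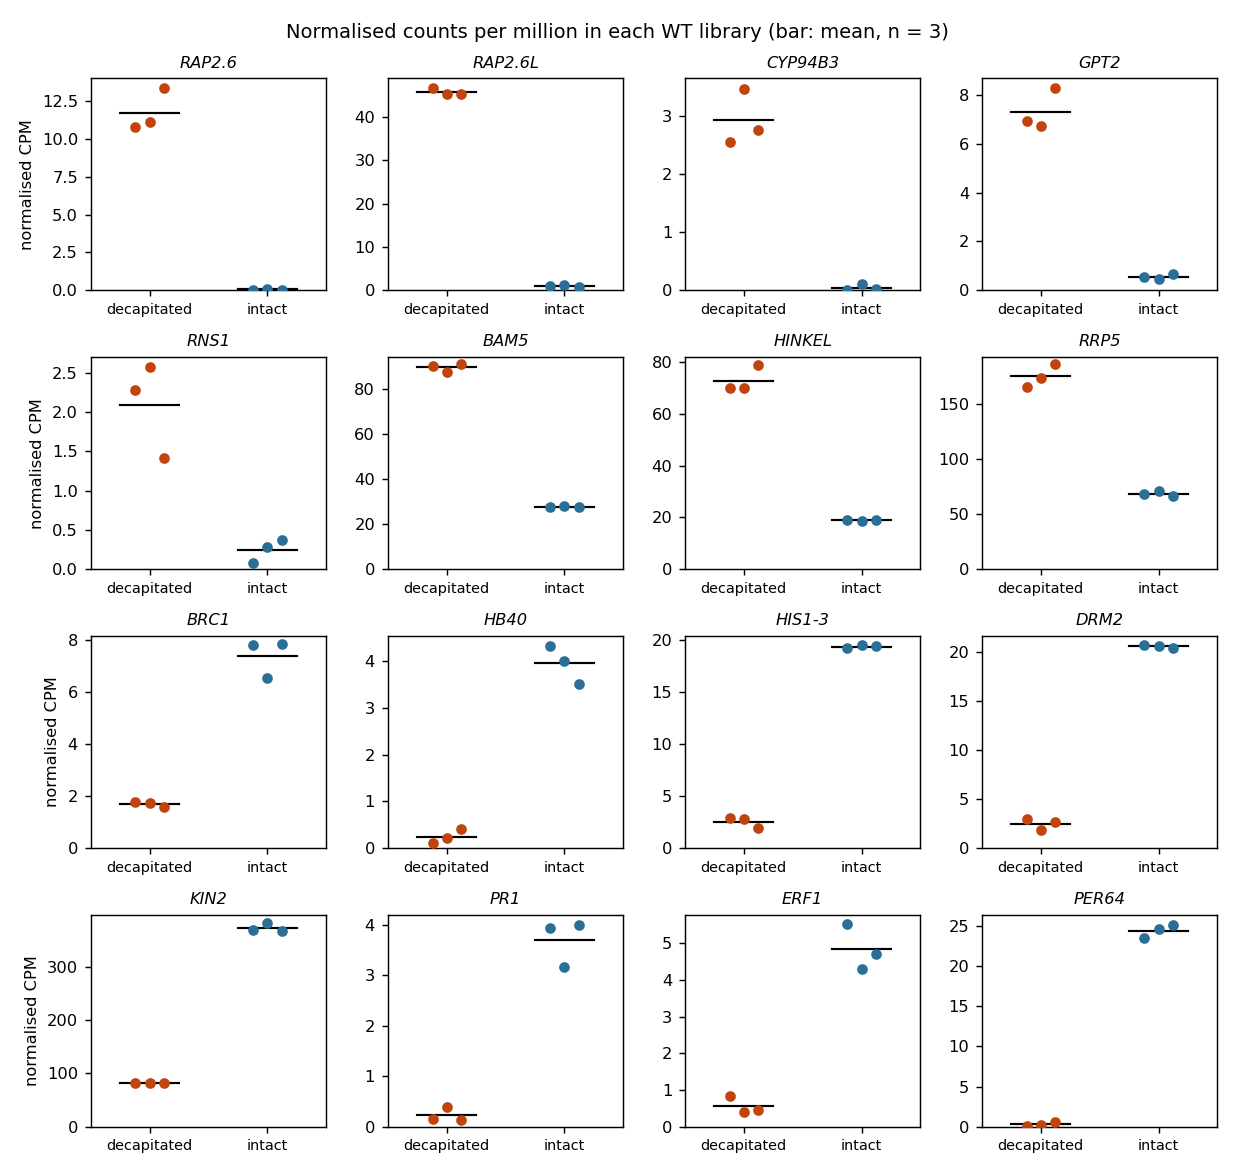
Normalised CPM of 16 genes in each decapitated WT library (left) and each intact WT library (right), with the mean of 3 libraries as a bar and each axis starting at 0. In all 16 genes the 2 groups of libraries do not overlap; the 8 genes of the upper rows are higher in decapitated WT and the 8 of the lower rows are lower.

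Secondary walls stiffen fibres and vessels of the stem, and primary walls stretch as cells grow. Of 29 phenylpropanoid and secondary wall genes tested 22 fell and 3 rose. SND1, the master NAC gene of fibre walls, had 2, 1 and 0 counts in decapitated WT, against 14, 15 and 35 counts in intact WT, which is 0.0473 times the intact level (95% interval of counting error, 0.009504 to 0.145). Without decapitated WT replicate 1, which held 2 of these counts, the ratio was 0.0238 (0.000594 to 0.138). NST1 (-1.44), the fibre wall gene FLA12 (-1.33), and the cellulose synthase genes CESA7 (-0.70), CESA8 (-0.64) and CESA4 (-0.39) fell. The vessel genes VND7 (-0.12) and XCP1 (-0.16) changed less or did not pass, and the pathway genes PAL1 (0.13) and C4H (0.24) rose by little. What part stem tissue in the sample has in these values was not tested.

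Among primary wall genes 12 of 24 fell and 7 rose. XTH24, a xyloglucan enzyme gene, had 113, 108 and 113 CPM in decapitated WT, against 338, 339 and 332 CPM in intact WT (-1.598 ± 0.03), while XTH16 (0.82) and XTH9 (0.62), of the same family, rose. The expansin genes EXPA11 (-1.06) and EXPA8 (-0.98) fell and EXPA10 (0.52) rose. PME5, a pectin methylesterase gene of the shoot tip, had 173, 177 and 186 CPM in decapitated WT, against 80.04, 84.8 and 87.9 CPM in intact WT (1.08 ± 0.04). Water channel genes fell: 11 of 15 tested PIP and TIP genes fell and 2 rose (median -0.59), and PIP1;5 had 109.6, 109 and 97.4 CPM in decapitated WT, against 271, 260.5 and 262 CPM in intact WT (-1.33 ± 0.04). Tubulin genes rose in 9 and fell in 5 of 15 cases.

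**Figure D5:**
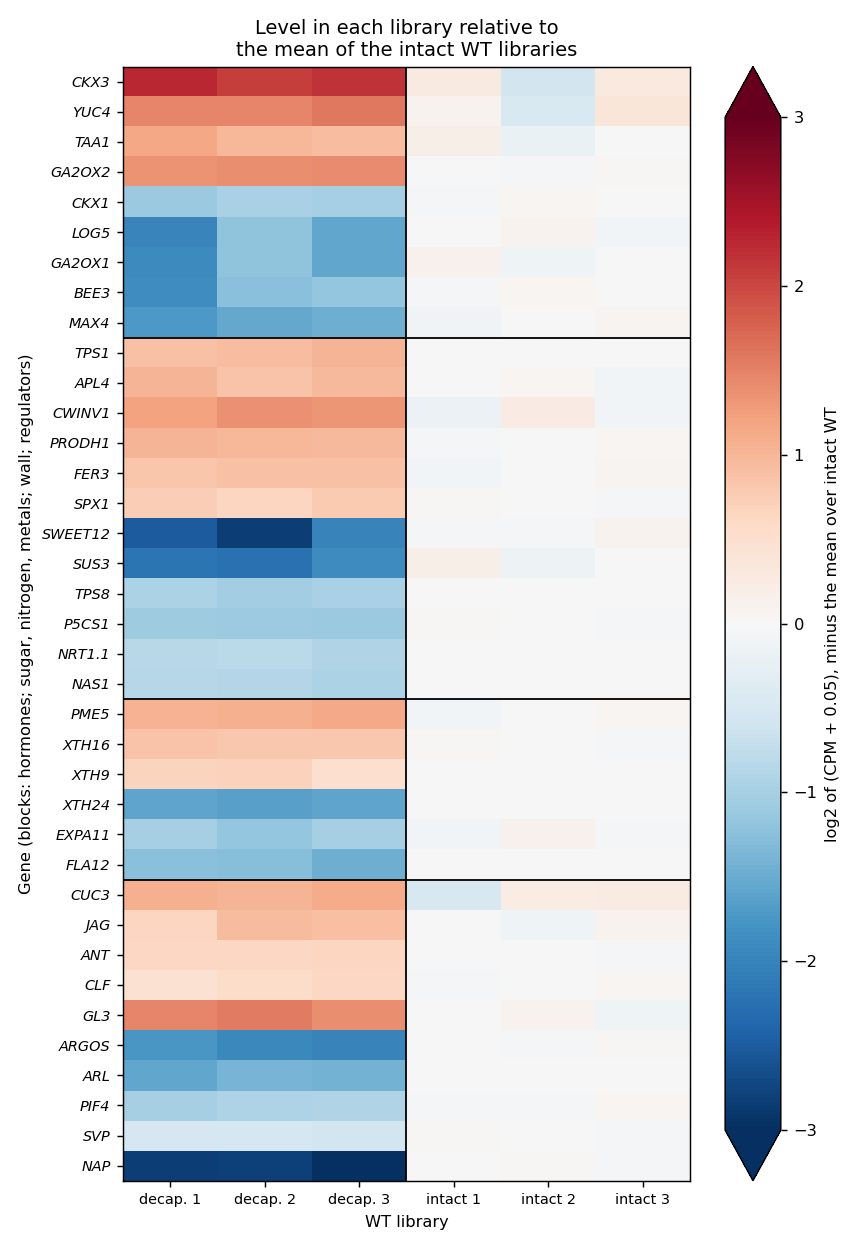
Level of 37 genes in each WT library, decapitated on the left, as log2 of CPM plus 0.05 minus the mean over intact WT. Within each group the libraries have like colours, and neighbouring genes of one function, such as CKX3 and CKX1 or XTH16 and XTH24, have opposite ones.

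Of 24 light and shade genes tested 12 fell and 5 rose. PIF4, a factor of stem elongation in shade and warmth, had 54.4, 56.5 and 57.6 CPM in decapitated WT, against 106, 106 and 112 CPM in intact WT (-0.94 ± 0.04). Its targets HFR1 (-1.02), ATHB2 (-0.89) and IAA19 (-0.90) fell, PIL1 (-0.17) did not pass, and the photoreceptor gene PHYB (0.35) and the light stress gene ELIP1 (1.14) rose. Of 18 clock genes tested 8 fell, such as RVE1 (-1.08) and LUX (-0.86), and 1 rose, ELF3 (0.22), whose call was lost without decapitated WT replicate 1 (0.17) or 3 (0.19) and without intact WT replicate 1 (0.18) or 3 (0.19). Among core genes CCA1 (0.03 ± 0.03), LHY (0.04 ± 0.03), TOC1 (-0.02 ± 0.06), PRR7 (0.05 ± 0.03) and GI (-0.06 ± 0.06) did not pass, although LHY did with DESeq2 and with 2 other settings, and GI did at -0.15 without decapitated WT replicate 3.

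Flowering genes gave 4 rises and 8 falls among 22 tested. The regulator genes LFY (-0.74), SOC1 (-0.46), SVP (-0.53) and TFL1 (-0.42), which differ in role, fell. The floral genes SEP3 (0.66), AP3 (0.48) and PI (0.27) rose, and AP1 (0.12) and AG (0.11) did not pass. PI did not pass without decapitated WT replicate 2 (0.20) or without intact WT replicate 3 (0.24). Of 25 Polycomb and NF-Y genes 8 rose and 14 fell. The methyltransferase genes CLF (0.55) and SWN (0.45), which write H3K27me3, and the demethylase genes REF6 (0.37) and ELF6 (0.41), which remove it, rose. The falls were in NF-Y subunits, such as NF-YA7 (-0.81), NF-YC4 (-0.80) and NF-YB3 (-0.55). Of 18 tested genes counted in the TCP family, BRC1 not among them, 8 fell, and the 2 that rose were TCP10 (0.39) and TCP4 (0.21).

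The 12 largest rises and 12 largest falls were taken by log2 change among genes that passed, had a mean of at least 1 CPM in the higher group and did not overlap between groups. The largest rise was AT1G29090 (chromosome 1, 10162795 to 10164452), with 405, 419 and 318 counts in decapitated WT, against 0, 0 and 0 counts in intact WT. Against a floor of 3 counts over the intact group, which assumes that counts are independent and gives a bound up to 2-fold too high where both mates of a fragment were counted, it was at least 384-fold higher. LON3, a gene of the Lon protease family, had 78, 72 and 51 counts in decapitated WT, against 0, 0 and 0 counts in intact WT, at least 67.6-fold higher. SESA1, a seed albumin gene, had 66, 60 and 37 counts in decapitated WT, against 0, 0 and 0 counts in intact WT, at least 54.8-fold higher. AT5G52160 had 80, 109 and 71 counts in decapitated WT, against 0, 0 and 0 counts in intact WT, at least 87.5-fold higher. It was higher still in intact brc1-2, with 18.28, 18.45 and 17.67 CPM against a mean of 1.62 CPM in decapitated WT. AT1G29090 and LON3 had 0 CPM in intact brc1-2. AT3G05770, a close neighbour of LON3 on chromosome 3 of whose exon bases 16.4% lie in another gene, had 450, 527 and 433 counts in decapitated WT, against 0, 9 and 0 counts in intact WT. AT3G54580 had 73, 71 and 98 counts in decapitated WT, against 2, 0 and 1 counts in intact WT, 81.4 times the intact level (95% interval of counting error, 27.5 to 398). Without intact WT replicate 1, which held 2 of these counts, the ratio was 168 (29.9 to 6672).

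Other large rises started from some reads in intact WT. TH8, a thioredoxin gene, had 28.7, 29.6 and 25.7 CPM in decapitated WT, against 0.798, 0.632 and 0.945 CPM in intact WT (5.15 ± 0.12). ELI3-2, of the cinnamyl alcohol dehydrogenase family, had 127, 93 and 83 counts in decapitated WT, against 0, 4 and 0 counts in intact WT, and AT2G41800 had 188, 251 and 180 counts in decapitated WT, against 0, 5 and 0 counts in intact WT. RAP2.6, RAP2.6L and CYP94B3 complete the 12. In ELI3-2, AT2G41800 and AT3G05770 all reads of the intact group came from intact WT replicate 2. Without that library, and against a floor of 3 counts over the intact libraries left, they were at least 65.9-fold, 134-fold and 306-fold higher. For CYP94B3, which had 6 counts in that library, the ratio without it was 306 (54.7 to 12130).

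The largest fall was AT3G17520 (chromosome 3, 5999174 to 6000447), with 0, 0 and 0 counts in decapitated WT, against 202, 208 and 221 counts in intact WT, at least 208-fold lower against a floor of 3 counts over the decapitated group. PER64 (AT5G42180; chromosome 5, 16852628 to 16854224), a peroxidase known from lignin of the root endodermis, had 0.0926, 0.247 and 0.634 CPM in decapitated WT, against 23.5, 24.6 and 25.1 CPM in intact WT (-6.27 ± 0.18). OCT1, an organic cation transporter gene, had 0.185, 0.247 and 0.102 CPM in decapitated WT, against 3.61, 2.98 and 3.63 CPM in intact WT (-4.21 ± 0.26). PCR1, of the plant cadmium resistance family, had 0.722, 0.493 and 0.716 CPM in decapitated WT, against 10.9, 10.4 and 10.3 CPM in intact WT (-4.03 ± 0.12). DIR5, a dirigent protein gene, had 0, 0.0705 and 0.123 CPM in decapitated WT, against 1.04, 1.12 and 1.24 CPM in intact WT (-4.12 ± 0.56), and the ERF gene ERF14 had 0.0741, 0.141 and 0 CPM in decapitated WT, against 1.22, 1.23 and 1.35 CPM in intact WT (-4.04 ± 0.59). AT5G66780 (-5.96 ± 0.52), AT3G59845 (-4.61 ± 0.55), DIP2 (-4.201 ± 0.52) and AT5G39520 (-4.04 ± 0.40) lay in the same range, with HB40 and LEA4-5 described above. Single decapitated libraries moved some of these values: without decapitated WT replicate 3 PER64 was at -7.13 and DIR5 at -4.89, without replicate 2 ERF14 was at -4.95 and AT5G39520 at -4.67, and without replicate 1 DIP2 was at -4.81. AT3G59845 was at -4.00 without decapitated WT replicate 2 and had a ratio of 0.0139 (0.00167 to 0.0509) without replicate 3.

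Marker genes of tapetum and pollen, root and seed were read as a further check of the tissue. Part of them were at or near 0. The filter was passed by 6 of 8 tapetum and pollen markers, 5 of 11 root markers and 1 of 9 seed markers. Of 8 tapetum and pollen markers 3 held 0 counts in all 6 WT libraries, MS1 and CYP703A2 among them, and their summed level was 7.18 to 7.81 CPM in decapitated WT, against 6.74 to 7.44 CPM in intact WT. Of the 6 tested, 3 rose: LAP5 (1.19), CYP704B1 (2.16) and AMS (2.54). AMS had 18, 40 and 36 counts in decapitated WT, against 12, 2 and 2 counts in intact WT, and without intact WT replicate 1 its log2 change was 3.95. LAP5 did not pass without decapitated WT replicate 1 (0.87), nor did CYP704B1 without decapitated WT replicate 1 (1.52), intact WT replicate 1 (1.66) or intact WT replicate 2 (1.96). CYP704B1 had 12.8 (2.03 to 529.8) times the intact level without intact WT replicate 3. Root markers summed to 578.7 to 587.9 CPM in decapitated WT and 370.7 to 385.9 CPM in intact WT, mostly from PYK10, a glucosidase gene with 513, 514 and 519.9 CPM in decapitated WT, against 322, 324 and 304 CPM in intact WT (0.70 ± 0.03). Of 5 root markers tested 3 rose and 1 fell. The stem cell factor gene WOX5 had 38, 30 and 16 counts in decapitated WT, against 5, 13 and 7 counts in intact WT (1.74 ± 0.49), SCR (0.21) rose by little, and the iron transporter gene IRT1 fell, with 9, 6 and 4 counts in decapitated WT, against 16, 26 and 30 counts in intact WT (-1.89 ± 0.51). RHD6 held 0 counts, and EXPA7, EXPA18, PLT1 and PLT2 were at or near 0. Of 9 seed markers SESA1 was the 1 that passed the filter, and 4 held 0 counts in all 6 libraries.

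A mutant without BRC1 also releases its buds, so the direct contrast of decapitated WT with intact brc1-2 shows where the decapitated buds stood apart from it. Over all genes 5256 were higher and 5192 lower in decapitated WT (24.4% and 24.1%), and by at least 2-fold 417 were higher and 797 lower (1.94% and 3.7%). RAP2.6L stood apart from both intact groups. It had a mean of 45.8 CPM in decapitated WT and 1.23, 1.07 and 1.299 CPM in intact brc1-2 (log2 difference 5.25; edgeR adjusted p = 4.3e-26). GPT2 had a mean of 7.31 CPM in decapitated WT and 0.794, 0.699 and 0.904 CPM in intact brc1-2 (log2 difference 3.19; edgeR adjusted p = 4.3e-15). PR1 had a mean of 0.226 CPM in decapitated WT and 17.3, 17.5 and 19.2 CPM in intact brc1-2, and PER64 0.325 CPM in decapitated WT and 10.4, 11.1 and 9.83 CPM in intact brc1-2. All 6 tapetum and pollen markers tested were lower in decapitated WT, but the filter ran over all 9 libraries. Of the 8 markers 3 held 0 counts in all 6 WT libraries, so not every one tested had WT reads. A marker that passed through intact brc1-2 reads alone could only be lower, so this count is no result of the contrast. AMS, which had reads in WT, averaged 0.592 CPM in decapitated WT and 4.68 CPM in intact brc1-2. The part of tapetum tissue in the values below was not tested. Of 27 mitosis genes 24 were higher in decapitated WT than in brc1-2, but of 20 DNA replication genes 4 were higher and 1 lower. Jasmonate genes were higher in 20 of 26 cases and glucosinolate genes in 16 of 22. Photosystem and Rubisco genes were lower in all 30 cases tested, and salicylic acid and immunity genes in 17 of 19. For HB40 (log2 difference -0.03; edgeR adjusted p = 0.95) and LEA4-5 (log2 difference 0.44; edgeR adjusted p = 0.5) a difference from brc1-2 was not detected.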

How the data were processed

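The authors deposited raw counts per gene for 9 axillary libraries in one table, with exon coordinates and gene length in its columns per the file headers. Per the submitters' processing notes, which give no order or settings, the build was TAIR10 and the tools included cutadapt 3.5, fastp 0.23.1, HISAT2 2.0.5, SAMtools 1.13, featureCounts 2.0.1 and DESeq2 1.32.0. Of counts between 1 and 20, 60.8 to 64.7% were even, which points to mates counted singly for many genes. A fit on halved counts was therefore an alternative. Totals were 47462342 to 57419543 in the WT libraries. Intervals and floors cover counting error only and take counts as independent, so where both mates of a fragment were counted the intervals are too narrow and fold bounds up to 2-fold too high. The header of the table gives the same brc1-2 replicate number to 2 columns, so these are libraries 2a and 2b of that group. Seedling RNA-seq and CUT&Tag samples were not analysed here.

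The 9 libraries, grouped by GEO title, entered 1 fit with edgeR 4.0.16 in R 4.3.3 (TMM, filterByExpr with a minimum count of 10 and a minimum total of 15, quasi-likelihood test, Benjamini-Hochberg adjustment, threshold 0.05). The contrasts were decapitated WT minus intact WT and decapitated WT minus intact brc1-2. SE was back-calculated from the log2 change and the F statistic. Tested on simulated data made from these counts, the fit recovered 88.3% of genes changed 1.5-fold, 94.4% of those changed 2-fold and 98.5% of those changed 4-fold. The simulation gave all genes 1 common spread (coefficient of variation 5.11%), and only 196 to 198 of the genes tested were changed. In the real counts 62.9% of genes passed, so these shares do not measure recovery there. Replicate libraries differed by more than sampling noise, so none is a copy of another (chi-square per degree of freedom 3.05 to 7.44 within WT groups). Alternatives used DESeq2 1.42.0, limma 3.58.1, other scalings and filters, and left out each library. Tables and figures were made with Python 3.11.15, pandas 2.3.3, numpy 2.4.6, scipy 1.17.1 and matplotlib 3.10.9.

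Gene names came from RefSeq names of the TAIR10.1 assembly, which matched 32548 of 32833 identifiers, and 10804 had a symbol. The 40 lists held 832 entries, of which 22 without a matching name were dropped. The 31 families were taken by symbol pattern, and 7 members that belong to another family were dropped after values had been seen. Members, lists and families were chosen with earlier results of these data known. Genes named are members of the lists, the 12 largest rises and falls under the rule given with them, and in each family the 4 members with the smallest p in each direction. A gene of these lists is counted with its list but not reported here by name. Exact binomial intervals at 95% were used for ratios with 1 to 3 counts in a group.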

Additional observations from a re-analysis of the deposited data

How the results depend on the processing

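The counts of genes higher and lower moved by less than 1.5 times in 19 alternatives, 3 of which, each without 1 intact brc1-2 library, were added after the data were seen. Against 6334 higher and 7222 lower, DESeq2 gave 6589 and 6805, limma-voom 6316 and 7211, upper-quartile factors 6044 and 7539, and an adjusted p under 0.01 gave 5433 and 6141. The balance tipped to more rises than falls with no filter (6880 and 6803) and with the 6 WT libraries alone (6677 and 6607). Leaving out each library gave 5947 to 6300 higher and 6775 to 7212 lower, and at 2-fold 594 to 640 higher and 1037 to 1090 lower. Against intact brc1-2 it gave 4733 to 5325 higher and 4656 to 5168 lower. No scaling moved the median of all genes by more than 0.03 on the log2 scale. With the replicate number as a block the 6 WT libraries gave 6741 higher and 6665 lower. Same-numbered libraries did not deviate together (correlations of 0.007 to 0.019), so the numbers were not taken as pairs.

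Of 350 genes named, 7 lost their call in some alternative, 4 gained one and 0 changed direction as called genes. Family counts of 5 or more moved by more than 1.5 times in 4 families, which were kept out of the account above. GATA factor genes had 3 higher and 10 lower, with as few as 6 lower. CRK kinases had 3 higher and 12 lower, with up to 5 higher. WAK kinases had 5 lower, with as few as 3, and RLP genes had 8 higher and 11 lower, with as few as 4 higher. Smaller counts moved by more than 1.5 times as well. Rises ranged over the alternatives from 1 to 3 for strigolactone genes (2 as reported), 1 to 2 for nitrate and amino acid genes (1), 0 to 2 for clock genes (1), 0 to 2 for cold and drought genes (1), 1 to 3 for tapetum and pollen markers (3), 0 to 2 for ERF genes (0), 0 to 1 for Aux/IAA genes (0), 2 to 4 for auxin response factors (2), 1 to 3 for SAUR genes (3), 0 to 3 for CYP71 genes (2), 1 to 3 for NPF genes (3) and 1 to 3 for U-box genes (2). Falls ranged from 1 to 2 for phosphate genes (2), 1 to 2 for ribosomal protein genes (1), and 0 to 1 for root markers (1), GH3 genes (1) and proteasome subunits (0). Auxin response factors had 6 falls, with as few as 4. Genes with few counts in 1 group depend most on single libraries, and with 3 libraries per group no spread within a group is known well. The labels do not give the time since the cut.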

Other observations

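Of 21 tested U-box ubiquitin ligase genes, which mark proteins for degradation, 13 fell and 2 rose by edgeR adjusted p under 0.05. PUB9 (-0.82), PUB24 (-1.25) and PUB14 (-0.43) fell alongside PUB19, and PUB49 (0.27) and PUB4 (0.17) rose. PUB4 did not pass without decapitated WT replicate 3 (0.13) or intact WT replicate 1 (0.11). Of 12 auxin response factor genes, which bind the promoters of auxin targets, 6 fell and 2 rose. The repressor genes ARF10 (-0.46), ARF16 (-0.45) and ARF2 (-0.18) fell, and the activator genes ARF19 (0.48) and ARF6 (0.22) rose. These values are log2 changes of decapitated minus intact WT.

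Pectin methylesterases alter wall stiffness. Of 9 tested 6 fell, such as PME3 (-0.43) and PME61 (-0.63). The 2 that rose were PME5, given above, and PME2, which had 1.41, 2.52 and 2.44 CPM in decapitated WT, against 0.359, 0.614 and 0.927 CPM in intact WT (1.73 ± 0.30). Of 10 heat shock factor genes 4 fell, such as HSFB2A (-0.82) and HSFA8 (-0.89), and HSFA1D (0.26) was the 1 that rose. Of 38 homeobox genes tested 10 rose and 14 fell, 26.3% and 36.8%, near the 29.4% and 33.5% of all genes. HB6 (-0.61) and HB12 (-0.98), which respond to abscisic acid, fell with HB40, HB21 and HB53. The zinc finger homeobox genes HB33 (0.39), HB31 (0.43) and HB25 (0.22) were among the rises, and zinc finger members were not counted apart.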
